A study of Mus musculus with 9 samples.

Results

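The 5 noncoding RNA genes Gm23935, Gm24270, Gm26917, Malat1 and Neat1 were followed across 9 poly-A RNA-seq libraries of mouse metaphase II oocytes. These are 5 of the 30153 genes in the deposited tables. They were chosen by measured values, because they include the most abundant gene of most libraries and nuclear RNAs that vary between libraries, so their high levels and their spread are given here as a description. All oocytes came from 4-week-old Sycp3CreERT2/+; Rosa26nT-nG/+ females of mixed genetic background, superovulated with 5 IU PMSG and, 48 h later, 5 IU hCG. Eggs were recovered from the oviduct 13 h after hCG, freed of their cumulus by hyaluronidase, and hand-sorted by fluorescence to pools called GFP High, GFP Low and RFP, each with 3 libraries. CreERT2 sits at Sycp3, a gene of the meiotic chromosome axis, and acts after tamoxifen, and the reporter switches from nuclear tdTomato to nuclear GFP once Cre has recombined it. The RFP group carries the same alleles as the GFP groups. The GFP High pools held 15 to 16 oocytes, the GFP Low pools 49 to 57 and the RFP pools 87 to 100, so the groups also differ in input. Nothing in the labels ties the libraries to separate animals, and the p-values below measure the spread between these libraries only.

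Malat1 and Neat1 are long RNAs that stay in the nucleus. Malat1 is concentrated in nuclear speckles, where splicing factors collect, and its mature end is made by RNase P cutting beside a tRNA-like element rather than by ordinary polyadenylation. Neat1 is the scaffold of paraspeckles, nuclear bodies built on its long isoform together with proteins such as Nono and Sfpq, and its short isoform is polyadenylated. Fully grown oocytes are transcriptionally quiet, and at metaphase II the nuclear envelope is gone, so an RNA of the nucleus has no nucleus to reside in. Oligo-dT capture favours RNAs with a run of A.

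Gm23935 and Gm24270 are both annotated as miRNA genes of 57 bases. Their sequences are shown because they turned out to be the same one, together with the related genes that were also counted. Capitals mark bases that differ from Gm23935, and sequences are read 5′ to 3′ from the GENCODE M21 transcripts (GRCm38).
Gm23935: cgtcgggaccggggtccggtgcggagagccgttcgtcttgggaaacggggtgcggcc
Gm24270: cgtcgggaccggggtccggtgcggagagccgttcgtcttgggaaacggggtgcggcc
Gm24187: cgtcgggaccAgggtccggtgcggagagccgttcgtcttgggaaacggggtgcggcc
Gm25911: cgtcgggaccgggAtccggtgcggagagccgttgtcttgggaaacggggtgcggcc
Gm23935 lies at chr16:11144125-11144181 on the plus strand, in an intron of Zc3h7a, which runs on the minus strand. Gm24270 lies at chr9:56223715-56223771 on the minus strand, in an intron of Peak1 and on the same strand. All 57 bases are identical between them. A search of 141767 GENCODE transcripts for any shared run of 20 bases found 6 genes in all, of which 3 are identical. Gm24245, which is also identical, and Gm23388 are not among the genes of the deposited tables, so no level can be given for them. Gm24187 (chr13:9834469-9834525, minus strand) carries the single substitution G11A, counted from 1 at the 5′ end of Gm23935. Gm25911 (chr1:167340369-167340424, minus strand) carries G14A and lacks 1 base, which is not marked above. No transcript shared a 20-base run with the reverse complement. A read that lies wholly inside the identical stretch cannot be told apart between the copies, and how such reads were counted is not given in the sources used here, so the levels of single copies are uncertain. The miRNA annotation was taken as given. No comparison with full ribosomal RNA sequences was made, so whether these counts come from a miRNA was not tested.

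Base composition separates the members. Guanine and cytosine make up 73.7% of the 57-base sequence and 69.1% of Gm26917, against 42.5% of Malat1 and 47.3% of Neat1, where the median over all transcripts was 49.2%. The longest run of A is 3 bases in the 57-base sequence, 4 in Gm26917 and 7 in Neat1. Malat1 (chr19:5795690-5802672, minus strand) holds a run of 12, a length that 4.07% of transcripts reach, starting at base 6674 of its 6983 bases. The stretch around it, from base 6644 to base 6715 of the transcript, is shown with the run in capitals because it is the A-rich tract near the mature end of the RNA, just before the tRNA-like element.
Malat1: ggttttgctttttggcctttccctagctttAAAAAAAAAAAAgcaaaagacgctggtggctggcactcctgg
The stretch maps to chr19:5795958-5796029 on the minus strand.

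Gm26917 is annotated as a lincRNA of 3329 bases at chr17:39843013-39846341 on the plus strand. That annotation was also taken as given. Gm26917 was not compared with ribosomal RNA sequences, so whether its counts come from a lincRNA was not tested. CT010467.1, annotated as an rRNA gene on the opposite strand, lies 12 bp past the last base of Gm26917. The RefSeq table for GRCm38.p6 places Rn18s-rs5, annotated as a pseudogene, 13 bp past that base. Neat1 (chr19:5824708-5845478, minus strand, 20771 bases) lies 22036 bp from Malat1 on the same strand. All 5 genes have the same position in GENCODE M21.

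The 5 RNAs were not alike in abundance. Gm23935 was the gene with the most counts in 8 of 9 libraries and second to the mitochondrial rRNA mt-Rnr2 in RFP 1. By count, which does not correct for length, Gm24270 ranked between 367 and 1521, Gm26917 between 890 and 13443, Malat1 between 2951 and 6920, and Neat1 between 9473 and 21914. The 5 genes together took 1.51% to 2.73% of a library. Library totals ran from 19381677 to 27746256 counts, and levels are given as CPM, counts scaled to a common library total. eGFP was counted 869 to 1081 times per library in the GFP High pools, 282 to 662 in the GFP Low pools and 0 to 16 in the RFP pools, and tdTomato ran the other way at 0 to 2, 16 to 35 and 46 to 94. The defining oocyte genes were present in every library, with Gdf9, a growth factor of the oocyte, at 1431 to 1832 CPM.

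**Figure D1:**
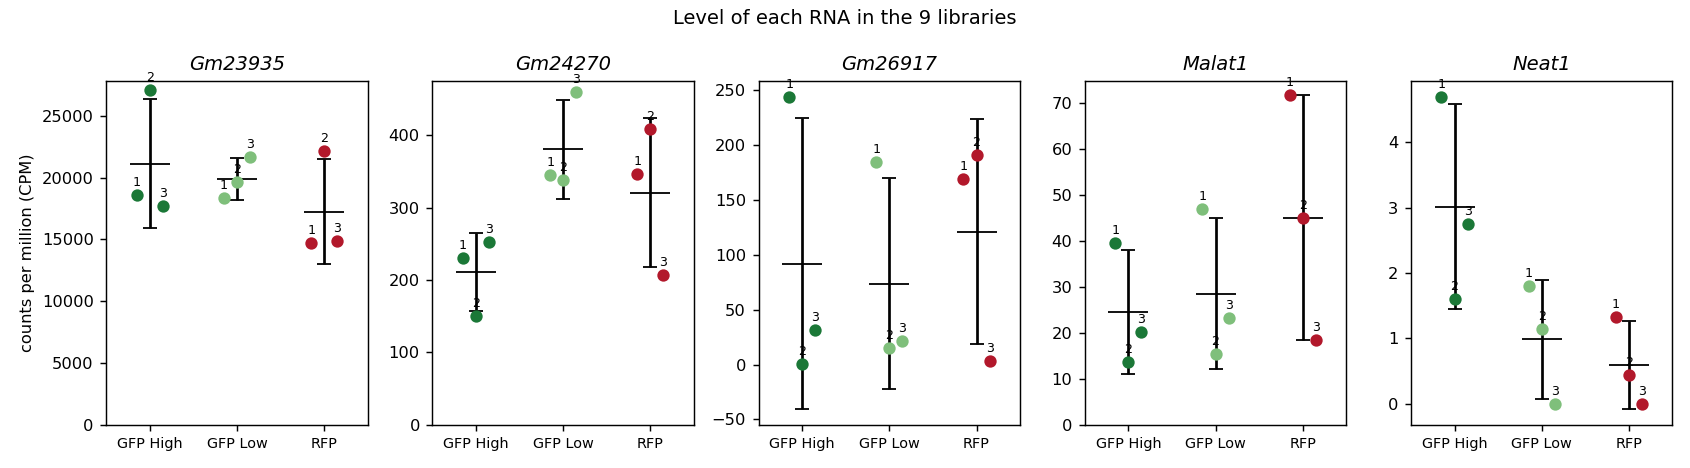
Level of each RNA in CPM (y axis, linear, scaled separately per gene) in the 3 libraries of each group. Points are libraries with their replicate number, and the bar and whiskers are the mean ± SD. Gm26917 and Malat1 are high in the same 4 libraries, 1 or 2 from each group, and Neat1 is higher in all GFP High libraries than in any RFP library.

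Gm23935 varied less between libraries than the median gene, but more than the trend for genes of its abundance. It stood at 18586, 27106 and 17664 CPM in GFP High pools 1, 2 and 3, at 18331, 19665 and 21660 in GFP Low pools 1, 2 and 3, and at 14734, 22166 and 14859 in RFP pools 1, 2 and 3. GFP High 2 was the highest library and RFP 1 and RFP 3 the lowest, and the ranges of all 3 groups overlapped. At its peak it took 2.71% of the counts of GFP High 2 (95% Wilson interval 2.70 to 2.72, which covers counting error only). The group means were 21119 ± 5206 CPM in the GFP High pools, 19886 ± 1675 in the GFP Low pools and 17253 ± 4255 in the RFP pools (SD, n = 3). The order of the means was thus GFP High, GFP Low, RFP, with neighbours that did not differ beyond their spread. Over the 9 libraries, the SD of its log2 CPM was 0.28, below the median of 0.39 over 15857 genes. The gene with the single substitution, Gm24187, was counted far less, at 2.42 to 7.02 CPM, with its lowest library in RFP 1 and its highest in RFP 2 and GFP High 2. Gm25911 had at most 0.613 CPM.

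Rn7sk, the small nuclear RNA that holds the elongation factor P-TEFb inactive, had its 3 highest and 2 lowest libraries in common with Gm23935. Its level was 1645, 2111 and 1527 CPM in GFP High pools 1, 2 and 3, 1760, 1452 and 1881 in the GFP Low pools, and 1205, 2641 and 655 in the RFP pools. The RNAs of the closest likeness to Gm23935 among all genes kept, by Pearson's r of log2 CPM over the 9 libraries, were Btf3 (r = 0.976), Hist1h4a (r = 0.975) and Relb (r = 0.962). Hist1h4a encodes a replication-dependent histone H4 and ran from 8.98 CPM in RFP 1 to 33.8 in GFP High 2. Such coefficients are the highest among the 15857 genes kept, the members left out, and are given as a description.

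Gm24270, with the same 57 bases, was lowest in the library where Gm23935 was highest. It stood at 231, 151 and 253 CPM in GFP High pools 1, 2 and 3, at 345, 337 and 459 in GFP Low pools 1, 2 and 3, and at 347, 408 and 207 in RFP pools 1, 2 and 3. All 3 GFP High libraries lay below all 3 GFP Low libraries, while RFP overlapped both. The means were 212 ± 53.7 CPM in the GFP High pools, 380 ± 68.4 in the GFP Low pools and 321 ± 103 in the RFP pools (SD, n = 3). A ratio of the 2 genes within a library is free of library scaling. Gm24270 gave 1.24, 0.557 and 1.43 counts per 100 Gm23935 counts in the GFP High pools, 1.88, 1.72 and 2.12 in the GFP Low pools, and 2.35, 1.84 and 1.39 in the RFP pools, in replicate order. GFP High again lay below GFP Low without overlap, but the ratio shares its numerator with the levels above and is not independent of them. In the levels, 11.5% of all genes tested had GFP High and GFP Low libraries that did not overlap. The host gene Peak1, a pseudokinase gene, was itself well expressed at 905 to 1228 CPM, and its correlation with Gm24270 is given below. Zc3h7a, host of Gm23935, stayed at 0 to 2.53 CPM. By likeness, Gm24270 stood closest to 1500011K16Rik (r = 0.952), Zfp940 (r = 0.948) and CAAA01098150.1 (r = 0.947).

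**Figure D2:**
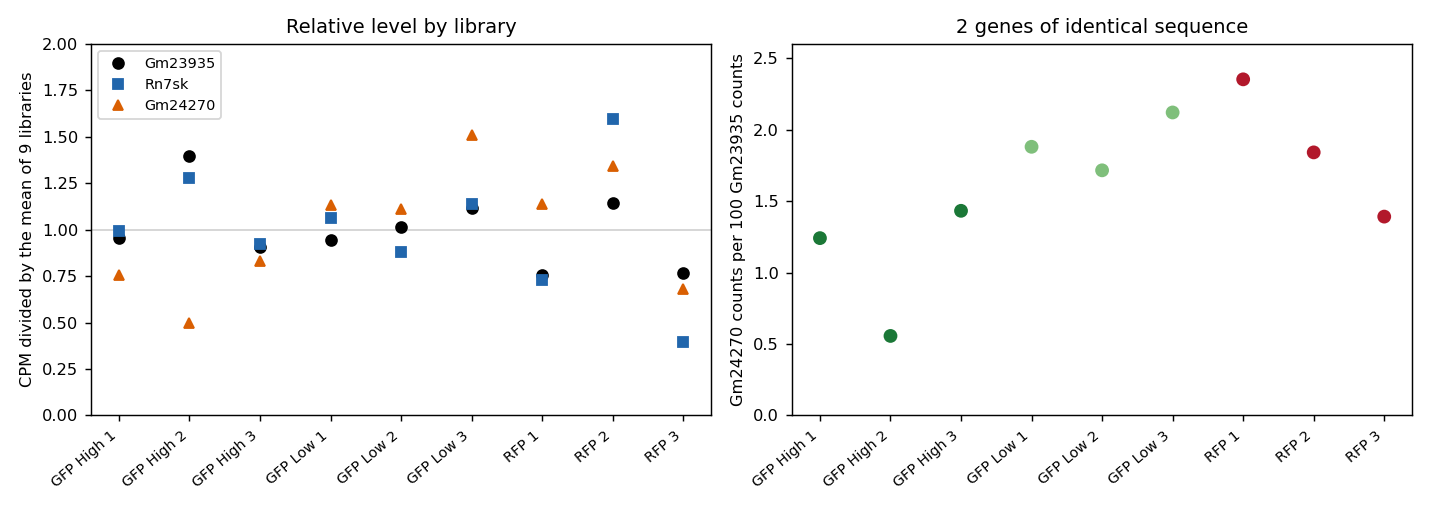
Left, CPM of Gm23935, Rn7sk and Gm24270 in each library divided by that gene's mean over the 9 libraries; right, Gm24270 counts per 100 Gm23935 counts, coloured by group. Gm23935 and Rn7sk are both above their means in GFP High 2, GFP Low 3 and RFP 2, whereas Gm24270 is lowest in GFP High 2, and the right panel runs from 0.557 to 2.35.

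Gm26917 had the widest spread of the 5. It stood at 244, 0.321 and 31.6 CPM in GFP High pools 1, 2 and 3, at 185, 15.1 and 21.2 in GFP Low pools 1, 2 and 3, and at 169, 191 and 3.23 in RFP pools 1, 2 and 3. GFP High 1, GFP Low 1, RFP 1 and RFP 2 were high, the other 5 libraries were low, and every group held both kinds. The split also followed the replicate number in part. Libraries numbered 1 were high and those numbered 3 low in every group, and of those numbered 2 only RFP 2 was high. What libraries of the same number share was not tested. The highest library exceeded the lowest, which had 8 counts, by 762-fold. The SD of log2 CPM over the 9 libraries was 3.15, more than that of 99.96% of 15857 genes. The adjoining rRNA gene CT010467.1 did not share the pattern: it stood at 93.5, 134 and 96.0 CPM in the GFP High pools, 85.3, 82.8 and 91.4 in the GFP Low pools, and 67.7, 80.0 and 74.5 in the RFP pools, with its maximum in GFP High 2, where Gm26917 was lowest.

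Malat1 was high in the same 4 libraries. It stood at 39.6, 13.6 and 20.2 CPM in GFP High pools 1, 2 and 3, at 47.0, 15.3 and 23.3 in GFP Low pools 1, 2 and 3, and at 71.7, 45.0 and 18.4 in RFP pools 1, 2 and 3. The lowest of those 4 libraries had 39.6 CPM and the highest of the other 5 had 23.3. The group means were 24.5 ± 13.5 CPM in the GFP High pools, 28.5 ± 16.5 in the GFP Low pools and 45.0 ± 26.7 in the RFP pools (SD, n = 3), and the groups overlapped. Per length, in the authors' FPKM, the median over libraries was 9.43 for Gm26917, 3.29 for Malat1 and 0.0628 for Neat1.

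Across the 9 libraries, the log2 levels of Gm26917 and Malat1 correlated with Pearson's r = 0.85 (exact permutation p = 0.0040, Benjamini-Hochberg adjusted p = 0.044 over 11 pairs) and Spearman's rho = 0.80 (exact permutation p = 0.0138, adjusted p = 0.152). Without the 2 libraries farthest from the median of Gm26917, GFP High 2 and RFP 3, r was 0.90 (exact permutation p = 0.0159, adjusted p = 0.058). Within groups, the deviations from the group means gave r = 0.88 (exact permutation p = 0.00926, adjusted p = 0.102). Leaving out 1 library at a time kept r between 0.83 and 0.89, but in 7 of the 9 cases (GFP High 1, 2 or 3, GFP Low 1 or 3, RFP 2 or 3) the adjusted p rose above 0.05, up to 0.116. Both genes were chosen with their variation across these same libraries known, so these p-values are a description rather than an independent test. Both genes were high in 4 libraries and low in 5, and neither set is large enough to test the relation within it. No other pair of members, and not Gm24270 with Peak1 (r = 0.49, exact permutation p = 0.184, adjusted p = 0.505), had an adjusted p under 0.05. Gm23935 and Gm24270 had r = -0.13 (exact permutation p = 0.743, adjusted p = 0.818), and without GFP High 2 and RFP 1 r was 0.88 (exact permutation p = 0.00694, adjusted p = 0.038), so that value rests on those libraries.

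The nearest patterns to these RNAs included a cumulus gene. Vcan, the proteoglycan that expanding cumulus cells deposit, was among the 3 genes most like Gm26917 (r = 0.964), after Gm7240 (r = 0.972) and before Bex4 (r = 0.960). Vcan stood at 10.5, 0 and 0.945 CPM in GFP High pools 1, 2 and 3, at 11.8, 0.342 and 1.84 in the GFP Low pools, and at 7.43, 15.1 and 0.260 in the RFP pools. The genes most like Malat1 were Nr4a1 (r = 0.937), an immediate-early nuclear receptor, S100a10 (r = 0.929), and Serpinh1 (r = 0.926), a collagen chaperone. S100a10 was counted in GFP High 1, GFP Low 1, RFP 1 and RFP 2, at up to 3.52 CPM, and had no count in the other 5 libraries. Serpinh1 had 3.40 to 6.09 CPM in those 4 libraries and at most 0.585 in the rest.

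The whole list of 24 cumulus and granulosa genes was summed per library. The sum was 230, 118 and 135 CPM in GFP High pools 1, 2 and 3, 172, 147 and 163 in the GFP Low pools, and 146, 221 and 139 in the RFP pools, of which Nr5a2 alone gave 99.7 to 159. On the whole list, GFP High 1, RFP 2 and GFP Low 1 were the 3 highest, and RFP 1 lay below GFP Low 3 and GFP Low 2. Without Nr5a2, a division chosen after the values were seen, the sum was 71.6 in GFP High 1, 67.8 in GFP Low 1, 38.4 in RFP 1 and 90.7 in RFP 2, and 16.5 to 35.5 in the other 5 libraries. By that sum the 4 libraries high in Gm26917 and Malat1 came first, with RFP 1 at 38.4 next to GFP Low 3 at 35.5. Of the 24 genes, 16, 7 and 13 had a count in GFP High pools 1, 2 and 3, 21, 15 and 18 in the GFP Low pools, and 22, 20 and 14 in the RFP pools, so GFP High 1 had fewer than GFP Low 3. Amh, Amhr2 and Ereg had no count in 8 of 9 libraries, and Lhcgr none in 6. The 8 measured theca and stroma genes summed to 0.922 to 2.79 CPM in the GFP High pools, 1.86 to 4.65 in the GFP Low pools and 2.12 to 12.0 in the RFP pools. RFP 1 was highest, but GFP High 1, at 1.95 CPM, lay below GFP High 3, GFP Low 3 and RFP 3, which were low in Malat1. Cyp17a1, the androgen-making enzyme of theca cells, had no count in 8 of 9 libraries. The part of somatic RNA in the levels of Gm26917 and Malat1 was not tested. In pooled oocytes, a change in the number of attached cells and a change in RNA per cell cannot be told apart.

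**Figure D3:**
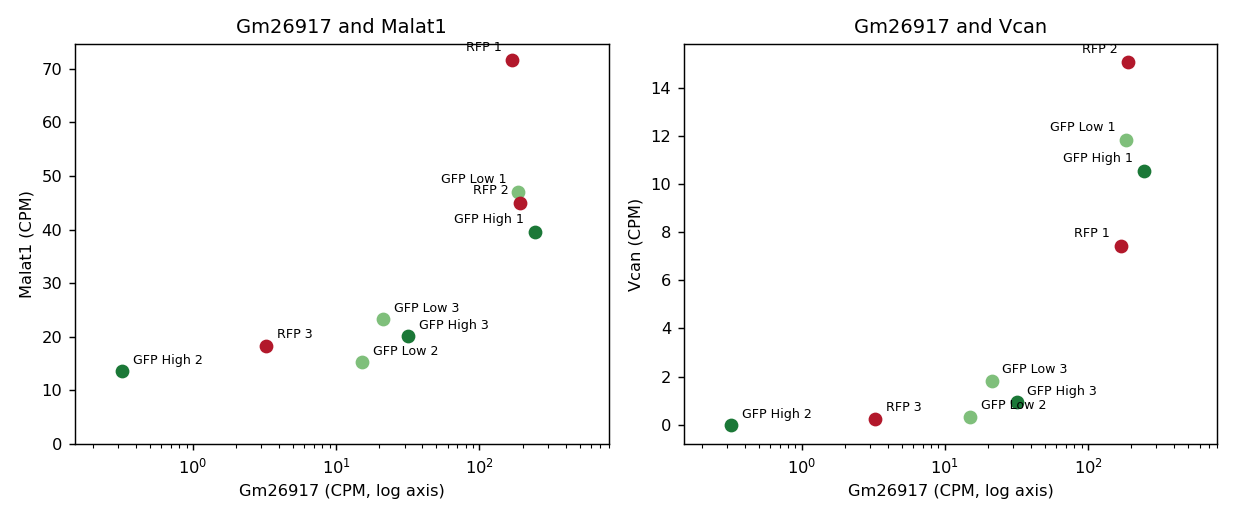
Malat1 (left) and Vcan (right) in CPM on linear axes against Gm26917 in CPM on a log axis, 1 point per library, coloured by group. GFP High 1, GFP Low 1, RFP 1 and RFP 2 sit apart at 169 to 244 CPM of Gm26917, with 39.6 to 71.7 CPM of Malat1 and 7.43 to 15.1 CPM of Vcan.

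Neat1 had few counts. Its counts were 128, 40 and 61 in GFP High pools 1, 2 and 3, 35, 30 and 0 in GFP Low pools 1, 2 and 3, and 35, 10 and 0 in RFP pools 1, 2 and 3. As CPM these are 4.70, 1.60 and 2.74, then 1.81, 1.14 and 0, then 1.33, 0.442 and 0. All GFP High libraries lay above all RFP libraries, and GFP Low overlapped both. A count of 0 allows up to 3 counts, which is 0.108 CPM in GFP Low 3 and 0.111 in RFP 3. The SD of its log2 CPM, 2.12, was larger than that of 99.6% of genes. That ranking takes no account of abundance, and the mean of Neat1 was above that of only 20.1% of genes. In edgeR its coefficient of variation beyond counting error was 0.96 in GFP High versus RFP, where the trend at its abundance was 0.81. It was 1.05 against 0.57 in GFP Low versus RFP, and 0.98 against 0.79 in GFP High versus GFP Low. Asb3 (r = 0.965), H2-Oa (r = 0.925) and Zbtb25 (r = 0.910) were nearest in pattern. Frmd8, the nearest gene on its other side from Malat1, stood at 5.69 to 10.4 CPM. The paraspeckle proteins were abundant in every library: Nono at 538 to 618 CPM, Sfpq at 550 to 653 and Hnrnpk at 208 to 270.

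The 3 comparisons ask whether eggs of different reporter history differ at ovulation, and they share libraries in pairs. In GFP High versus RFP, edgeR's quasi-likelihood test called 0 of the 5 genes at an adjusted p of 0.05, where it called 0.0135% of 14829 genes. Of the 5, 1 (Gm24270) had an unadjusted p under 0.05, as did 4.09% of all genes tested. DESeq2 called 0 of the 5 and 0.0694% of all genes. Without a filter on low counts, edgeR called 2 of the 5 (Gm24270 and Malat1) and 0.0583% of all genes. In that fit the values were -0.60 for Gm24270 (edgeR adjusted p = 0.0018) and -0.89 for Malat1 (edgeR adjusted p = 0.026). These log2 fold changes lay near those with the filter, given next. The log2 fold change of Gm23935 was 0.31 ± 0.19 (SE), of Gm24270 -0.59 ± 0.24, of Gm26917 -0.39 ± 1.43, of Malat1 -0.87 ± 0.48 and of Neat1 2.35 ± 1.22, and the edgeR adjusted p was 0.997 or 0.998 for each. Neat1 was the only one of the 5 whose groups did not overlap, as was the case for 12% of all genes tested. Its fold of 5.11 compares means of 3.02 and 0.589 CPM, and the value moved between 1.77 and 3.77 on the log2 scale as single libraries were left out, with the highest value without RFP 1.

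In GFP Low versus RFP, 0 of the 5 genes were called by edgeR, where 0.0197% of 15199 genes were, and none had an unadjusted p under 0.05, where 2.62% of all genes did. DESeq2 called 0 of the 5 and 0.066% of all genes, and edgeR without a filter on low counts called 2 of the 5 (Gm26917 and Malat1) and 0.116% of all genes. In that fit the values were -0.73 for Gm26917 (edgeR adjusted p = 3.4e-08) and -0.67 for Malat1 (edgeR adjusted p = 0.0024). These log2 fold changes lay near those with the filter, given next, so the calls came without a larger difference between the groups. The log2 fold changes were 0.21 ± 0.13 (SE) for Gm23935, 0.26 ± 0.19 for Gm24270, -0.72 ± 1.00 for Gm26917, -0.66 ± 0.43 for Malat1 and 0.72 ± 1.26 for Neat1, each with an edgeR adjusted p of 1.00. The value of Gm26917 ran from -2.73 without GFP Low 1 to -0.23 as single libraries were left out. The groups overlapped for all 5 genes, while 7.71% of all genes tested had groups that did not.

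In GFP High versus GFP Low, the call for Gm24270 depended on the test. Its log2 fold change was -0.85 ± 0.18 (SE), a level 0.557 times that of GFP Low. Its unadjusted edgeR p of 0.000846 was the third smallest of 14785 genes, and the adjusted p was 0.998. DESeq2 gave an adjusted p of 0.0092 and the authors' deposited table gives 0.00918, and each calls 4 genes in all. That is 0.0192% of the 20833 genes to which DESeq2 gave an adjusted p. It is 0.0151% of the 26570 genes the authors list, with or without an adjusted p, so the shares have unlike bases. edgeR called 0% of genes in this comparison, so 0 of the 5, and 3.77% of genes, Gm24270 among them, had an unadjusted p under 0.05. Without a filter on low counts, it called 1 of the 5 (Gm24270) and 0.0587% of all genes. Gm24270 kept a log2 fold change of -0.85 in that fit, with an edgeR adjusted p of 2.8e-11 against 0.998 with the filter. The groups did not overlap for Gm24270 alone of the 5, as for 11.5% of all genes tested. The log2 fold change stayed between -0.996 and -0.66 as each library was left out. The other 4 log2 fold changes were 0.09 ± 0.14 for Gm23935, 0.33 ± 1.34 for Gm26917, -0.22 ± 0.44 for Malat1 and 1.62 ± 1.21 for Neat1, with edgeR adjusted p-values of 0.998. For Gm26917 the sign turned with the libraries used, from -2.21 without GFP High 1 to 2.34 without GFP Low 1.

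**Figure D4:**
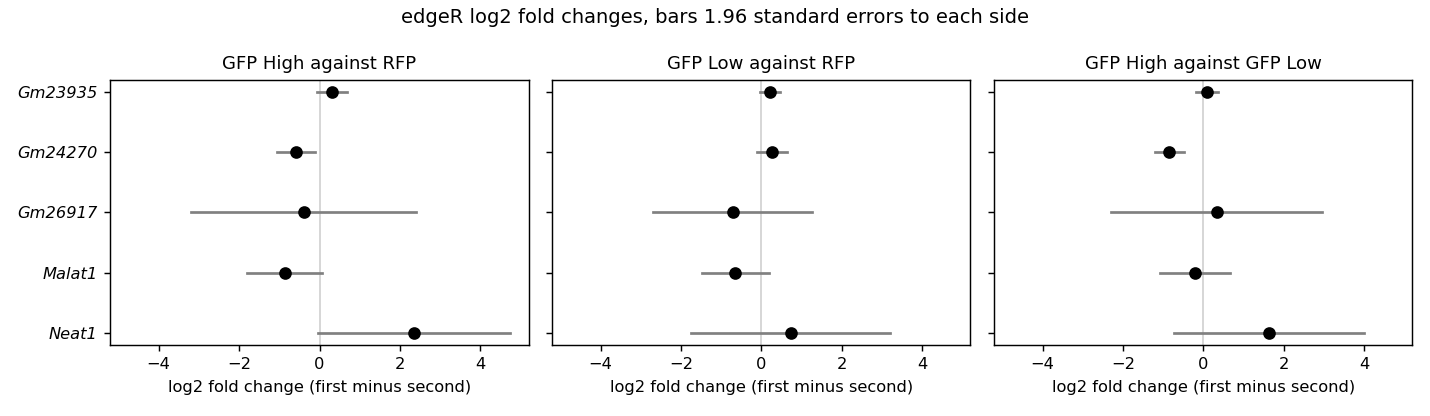
log2 fold change (x axis) of each gene in the 3 comparisons, first group minus second, from edgeR. Points are estimates and bars are approximate 95% intervals from the standard error under a normal distribution. With so few libraries, such bars are narrower than the quasi-likelihood test implies. The bars of Gm24270 exclude 0 in both GFP High comparisons, at -0.59 and -0.85, before adjustment over all genes, and those of Gm26917 and Neat1 are the widest.

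The genes that work with these RNAs did not pass the test in any comparison. Among 26 paraspeckle protein genes, of which 25 or 26 were tested, 0 were called, with median log2 fold changes of -0.07 in GFP High versus RFP, 0.01 in GFP Low versus RFP and -0.09 in GFP High versus GFP Low. The medians over all genes tested were -0.0056, -0.0041 and -0.0048. Among 35 nuclear speckle and splicing genes 0 were called, with medians of -0.04, -0.0049 and -0.03. Srrm2, a core speckle protein, stood at 566 to 683 CPM and Rbm25, a splicing regulator, at 789 to 1073. Of 13 genes for RNase P, RNase Z and METTL16, which shape the ends of Malat1 or bind it, 12 were tested and 0 called, with medians of 0.06, 0.01 and -0.03. Elac2, the RNase Z enzyme, stood at 146 to 200 CPM.

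RNA polymerase I and ribosomal RNA processing genes were called in 0 of 34 cases in every comparison, with median log2 fold changes of -0.02, 0.04 and -0.06 in the same order. The nucleolar proteins Ncl and Npm1 stood at 2969 to 3459 and 746 to 1082 CPM. Of 26 other long noncoding RNAs 22 were measured and 14 or 15 tested. None was called, with medians of 0.31, -0.11 and 0.21. Tug1 was the most abundant of them at 32.1 to 50.2 CPM. No call was made by edgeR or DESeq2 in any of the 3 comparisons among the genes tested from the remaining lists. For edgeR these were 4 of the 5 measured genes known to take ribosomal RNA reads, 3 of 7 small structural RNAs, all 15 oocyte genes, 13 to 16 of 24 cumulus and granulosa genes, 2 of 8 theca and stroma genes, 3 of 6 oviduct genes and 1 of 4 blood genes.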

How the data were processed

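Raw read counts per gene were taken from the 3 tables the authors deposited, 1 for each pair of groups. Per the submitters' processing notes, the tools named were fastp, HISAT2 2.0.5, featureCounts 1.5.0-p3 and DESeq2 1.20.0, with build mm10. Per the labels' protocols, RNA was captured with oligo-dT beads and read as paired ends. The deposited tables also hold FPKM, a normalised signal, log2 fold changes and p-values by the authors. FPKM was used only for levels per length, the signal only in checks, and the deposited log2 fold changes and adjusted p-values only where named. Joining gave 30153 genes in 9 libraries, and 178 genes absent from a table were set to 0 there. Replicates differed by 13.8 to 57.6 in chi-square per degree of freedom, so each was kept.

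Each comparison used edgeR 4.0.16 (R 4.3.3; filterByExpr, TMM, quasi-likelihood test, Benjamini-Hochberg adjustment over all genes tested, threshold 0.05), with DESeq2 1.42.0 as an alternative. Correlations used log2 CPM (prior count 2) and exact permutation. Intervals are Wilson at 95%, a count of 3 was the detection limit, and reads carry no molecular identifiers. Data were also simulated with 100 genes changed 2-fold and 100 changed 4-fold at once. For GFP High against GFP Low, on 14785 genes, edgeR recovered 35% of genes changed 2-fold and 63% of those changed 4-fold. These shares were 37% and 73% for GFP High against RFP, and 63% and 87% for GFP Low against RFP. A gene changed alone was not simulated. Named were the 5 genes, the top gene of each library, genes overlapping or next to a member, the 3 genes of highest r per member, the 3 most abundant genes per list and eGFP and tdTomato. Gm24187 and Gm25911 were named for their sequence, and other genes of the cell type lists after their values were seen. A gene that this rule names is not reported here. The members, lists and tests were chosen with earlier results of these data known.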

Additional observations from a re-analysis of the deposited data

How the results depend on the processing

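The count of called members in edgeR, 0 in each comparison, stayed at 0 with the other scalings, all 9 libraries in 1 fit, the replicate block, and each library left out. Without a filter on low counts it was 2 in GFP High versus RFP (Gm24270, Malat1), where 0.0583% of all genes were called. It was 2 in GFP Low versus RFP (Gm26917, Malat1), with 0.116% of all genes, and 1 in GFP High versus GFP Low (Gm24270), with 0.0587%. DESeq2 called 1 in the last, with 0.0192% of all genes. The log2 fold changes of these members stayed near those of the main fit, and the cause of the added calls was not tested. Of the recomputed log2 fold changes, 178 kept direction and call, 6 gained a call and 11 changed sign. With the replicate block, Gm26917 in GFP High versus GFP Low was -0.60. Over all genes kept, the deviations of same-numbered libraries correlated little (-0.11 to 0.12), and the block changed no call of a fold change. Those correlations cannot decide whether same-numbered libraries were handled together, which the labels do not say. Gm26917 and Malat1 were higher in the library numbered 1 than in that numbered 3 in every group. With group and replicate means removed, for which no p was computed, r was 0.93 for Gm24270 with Malat1, 0.44 for Gm23935 with Malat1, -0.69 for Gm23935 with Neat1 and 0.81 for Gm26917 with Malat1. With single libraries left out, Gm26917 ran from -2.92 to 0.19 in GFP High versus RFP from -2.73 to -0.23 in GFP Low versus RFP and from -2.21 to 2.34 in GFP High versus GFP Low, Neat1 from -0.040 to 2.16 in GFP Low versus RFP, and, in GFP High versus GFP Low, Gm23935 from -0.14 to 0.20 and Malat1 from -0.75 to 0.34. The count of correlated member pairs, 1, ran from 0 to 1 with single libraries left out, was 0 for deviations from the group means and 2 without the 2 farthest libraries. Deviations turned the sign of r for Gm23935 with Gm24270 (0.013) and Neat1 (-0.23), and for Gm24270 with Neat1 (0.22) and Peak1 (-0.023). Leaving out the 2 farthest gave 0.88 for Gm23935 with Gm24270, 0.49 with Gm26917 and 0.32 with Malat1, and -0.22 for Gm24270 with Gm26917. The other pair past the threshold there was Gm24270 with Neat1 (-0.90, adjusted exact permutation p = 0.038, against -0.28 with all libraries). With single libraries left out, r ran from -0.36 to 0.63 for Gm23935 with Gm24270, from -0.73 to 0.21 with Gm26917 and from -0.30 to 0.28 with Neat1, and from -0.67 to 0.019 for Gm24270 with Neat1. All 15 group means kept within 1 SD under both other denominators. Neat1 had 128 counts at most.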
